A study of Mus musculus with 12 samples.

Results

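Chemokine receptors are the cell-surface proteins through which leukocytes sense chemokines, and the 8 described here are Cxcr2, Cxcr1, Cxcr3, Cxcr4, Ccr1, Ccr7, Ccrl2 and Cmklr1. They were picked by symbol from the deposited table. The list was chosen by results of the same ozone contrast, so the differences of the 8 receptors between ozone and filtered air are a description. Where the outcome of the test over all genes is given for them, nothing is read from it. All 8 of the 8 symbols were found among the 55291 in the table, and all 8 passed the filter on low values, which kept 19633 genes. None of the 8 had a mouse at a lowest value shared within its batch. A lone mouse without reads would not be seen this way.

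The cells were alveolar macrophages, which patrol and clear the airspaces, sorted by flow cytometry from the lungs of female C57BL/6NJ mice aged 8 to 11 weeks. The control group breathed filtered air, and the other group breathed 0.8 ppm ozone for 4 h on each of 4 days. Cells were taken 3 days later. There were 6 mice in a group, with 3 of each group in each of 2 flow-sort batches, and the labels give no genetic modification. Values are variance-stabilized and batch-corrected by the authors, on a log2 scale on which the filtered-air mean is 0 in every gene. A value is therefore a difference from that mean. Levels of different genes cannot be compared, the total depth of a library is unknown, and differences of genes with few reads are understated. The median difference over all genes kept was -0.0033 on this scale. In these bulk samples, fewer cells of a type and less RNA per cell cannot be told apart.

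Most chemokine receptors pass their signal through inhibitory G proteins, which release beta-gamma subunits that act on phospholipase C beta and phosphoinositide 3-kinase gamma and so drive directed movement. Receptor kinases and arrestins then switch the receptor off, and RGS proteins shorten the G protein signal. Ccrl2 and Cmklr1 form a pair of a different kind, since Ccrl2 binds the chemoattractant chemerin without a classical signal and Cmklr1 is chemerin's signalling receptor. In the lung, Cxcr2 is best known as the receptor through which neutrophils follow CXCL1 and CXCL2 into the airspaces.

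Cxcr2, Ccrl2 and Cxcr4 stood higher after ozone than after filtered air, by 0.79, 0.39 and 0.35 on the log2 scale, and Ccr1 stood lower by a difference of -0.24. Cxcr1 had a difference of 0.18. Cxcr3, Cmklr1 and Ccr7 had differences between -0.079 and -0.024. Over all genes kept, 2.41% were higher and 1.84% were lower at an adjusted p under 0.05 in limma, and 3.53% had 2 groups without overlap in either direction. Among the 8 receptors, 2 (Cxcr2 and Cxcr4) were past that threshold on the higher side, 0 were past it on the lower side, and 1 (Cxcr2) had groups without overlap. Over the 24 alternatives the counts past the threshold ran from 0 to 3 on the higher and from 0 to 1 on the lower side; nothing is read from these counts, because the receptors were chosen on this contrast.

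**Figure D1:**
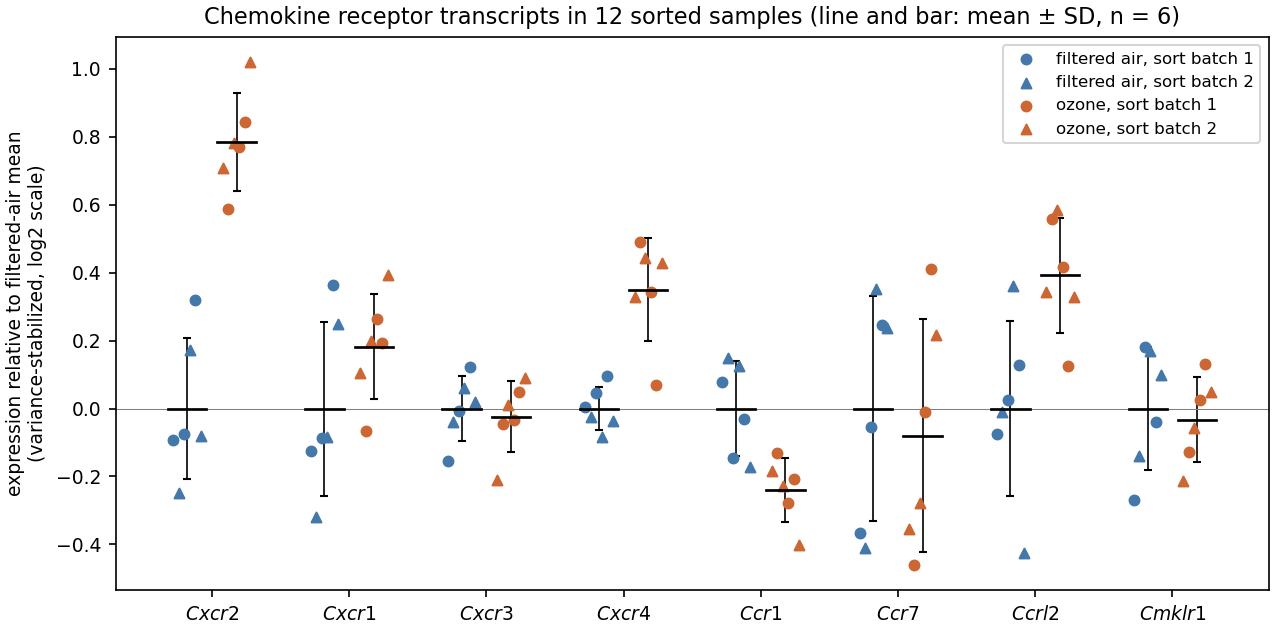
Values of the 8 receptors in each of the 12 mice, on the variance-stabilized log2 scale relative to the filtered-air mean. Circles are flow-sort batch 1 and triangles are batch 2, and lines with bars are the mean ± SD of 6 mice; the Cxcr2 values after ozone, from 0.59 to 1.02, all lie above the filtered-air values, from -0.25 to 0.32.

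Cxcr2 and Cxcr1 are the receptors of the neutrophil-attracting CXC chemokines and lie side by side on mouse chromosome 1. In RefSeq's GRCm38.p6 annotation Cxcr2 covers chr1:74153994-74161246 and Cxcr1 covers chr1:74191785-74194708, with 30538 bases between them. Cxcr4 lies on the same chromosome, at chr1:128588199-128592299, and Ccrl2 lies at chr9:111054834-111057518. The 250 bases before a start site of each of these 4 genes, as RefSeq's promoter table lists it, are shown because 3 of them hold the highest differences among the receptors and Cxcr1 is the neighbour and closest relative of Cxcr2. They were read from RefSeq's GRCm38.p6 promoter table, 5′ to 3′ on the strand of the gene, and cover chr1:74153744-74153993 (plus strand), chr1:74194632-74194881, chr1:128592300-128592549 and chr9:111057519-111057768 (minus strand for the last 3). The listed start of Cxcr1 lies inside the gene's span, so 77 of its 250 bases fall within the span and not before it. The 50 bases after the listed start were not found unbroken in a GENCODE M21 transcript of Cxcr1 or of Cxcr4, and they were found for Cxcr2 and Ccrl2. Capitals mark matches, on either strand, to the motifs searched, which are GGAAGT (PU.1), TATAAA (the core box for the TATA-binding protein), TGANTCA (AP-1) and TTGCNNAA (C/EBP).
Cxcr2: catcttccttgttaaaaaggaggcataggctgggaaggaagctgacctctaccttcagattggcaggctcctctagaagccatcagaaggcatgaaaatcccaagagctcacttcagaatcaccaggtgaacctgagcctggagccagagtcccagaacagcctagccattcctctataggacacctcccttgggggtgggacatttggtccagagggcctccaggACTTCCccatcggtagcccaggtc
Cxcr1: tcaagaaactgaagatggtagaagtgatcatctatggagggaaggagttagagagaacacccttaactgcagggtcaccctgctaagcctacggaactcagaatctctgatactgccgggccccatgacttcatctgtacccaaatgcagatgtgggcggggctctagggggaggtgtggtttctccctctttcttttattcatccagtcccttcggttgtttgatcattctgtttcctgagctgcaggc
Cxcr4: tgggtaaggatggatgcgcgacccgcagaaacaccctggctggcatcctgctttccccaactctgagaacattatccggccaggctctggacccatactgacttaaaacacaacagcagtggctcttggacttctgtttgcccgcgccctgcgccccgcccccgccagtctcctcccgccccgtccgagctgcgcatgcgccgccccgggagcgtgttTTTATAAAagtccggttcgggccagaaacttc
Ccrl2: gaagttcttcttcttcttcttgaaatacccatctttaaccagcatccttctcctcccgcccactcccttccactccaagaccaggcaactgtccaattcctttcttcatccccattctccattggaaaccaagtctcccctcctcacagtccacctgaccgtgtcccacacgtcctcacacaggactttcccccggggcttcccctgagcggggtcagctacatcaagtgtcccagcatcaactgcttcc

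The Cxcr2 stretch holds 1 match to the PU.1 letters, on the opposite strand, from base -24 to base -19 before the start. Cxcr4 holds 2 overlapping matches to the TATA letters, from -32 to -27 on the opposite strand and from -30 to -25 on the gene's own strand. Cxcr1 and Ccrl2 hold no match to any of the 4 motifs. Among 27018 windows of the same length before RefSeq starts, 20% hold the PU.1 letters, 13% the TATA letters, 9.56% the C/EBP letters and 6.87% the AP-1 letters. The Cxcr4 stretch is the richest of the 4 in G and C, at 61.2% with 19 CpG pairs, against 54.4% and 1 CpG pair in Cxcr2, 54% and 5 in Ccrl2, and 50% and 4 in Cxcr1. A match of letters is a description of these windows only. Cxcr3 (chrX:101731535-101734147), Ccr1 (chr9:123962126-123968692), Cmklr1 (chr5:113612355-113650475) and Ccr7 (chr11:99144199-99155077) are the other 4 receptors.

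Cxcr2 had values of -0.25 at the lowest, -0.078 at the median and 0.32 at the highest in the 6 filtered-air mice. After ozone it had values of 0.59 at the lowest, 0.77 at the median and 1.02 at the highest. The groups did not overlap: every ozone mouse lay above every filtered-air mouse. The difference was 0.79 (limma SE 0.0909, n = 6 and 6), with an SD of 0.144 after ozone and 0.207 after filtered air. It ranked 4 among the differences of all 19633 genes. With 1 mouse left out at a time it stayed between 0.73 and 0.86. Of the 3039 stretches of 50 bases in its GENCODE M21 transcripts, 4.01% also occur in transcripts of other genes, and of its stretches of 31 bases 7.7% do.

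Cxcr1 had values of -0.32 at the lowest, -0.085 at the median and 0.36 at the highest in filtered air. After ozone the values were -0.066 at the lowest, 0.20 at the median and 0.39 at the highest. The groups overlapped widely, and 1 of the 6 ozone mice lay above all filtered-air mice. The difference was 0.18 (SE 0.106), and it ranged from 0.11 without filtered-air mouse 2 to 0.26 without filtered-air mouse 5. The extreme mice were shared with Cxcr2: filtered-air mouse 2 was lowest and filtered-air mouse 5 highest for both genes, and ozone mouse 2 was lowest and ozone mouse 6 highest for both.

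Cxcr4, the receptor of CXCL12 that retains leukocytes in bone marrow and tissue, was at -0.084, -0.011 and 0.097 (lowest, median and highest) in filtered air. After ozone it was at 0.070, 0.39 and 0.49. In 5 of the 6 ozone mice it lay above all filtered-air mice, and ozone mouse 5, at 0.070, lay within the filtered-air range. The difference was 0.35 (SE 0.0627), and it was 0.41 when ozone mouse 5 was left out. Cxcr3, the interferon-linked receptor of CXCL9 and CXCL10 that is best known on T cells, ran from -0.16 to 0.12 with a median of 0.0062 in filtered air. It ran from -0.21 to 0.091 with a median of -0.012 after ozone. The groups overlapped almost completely, with a difference of -0.024 (SE 0.0562).

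Ccr1, a receptor of CCL3, CCL5 and related chemokines on monocytes and macrophages, was the only one of the 8 with 5 of 6 ozone mice below all filtered-air mice. It was at -0.17, 0.024 and 0.15 (lowest, median and highest) in filtered air. After ozone it was at -0.40, -0.22 and -0.13. All 6 ozone values were below 0, and the ranges overlapped in their margins. The difference was -0.24 (SE 0.0640), and it stayed between -0.28 and -0.20 with 1 mouse left out at a time. Ccr7, which guides dendritic cells and lymphocytes to lymph nodes along CCL19 and CCL21, had the widest spread of the 8, with an SD of 0.344 after ozone and 0.331 after filtered air. It ran from -0.41 to 0.35 with a median of 0.090 in filtered air. After ozone it ran from -0.46 to 0.41 with a median of -0.14. Its difference of -0.079 (SE 0.166) was smaller than the spread within either group.

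Ccrl2 was at -0.43, 0.0071 and 0.36 (lowest, median and highest) in filtered air. After ozone it was at 0.13, 0.38 and 0.59. All 6 ozone mice were above 0, and 3 of them lay above all filtered-air mice. The difference was 0.39 (SE 0.109), and it ranged from 0.30 without filtered-air mouse 6 to 0.47 without filtered-air mouse 4. Cmklr1, the signalling receptor of chemerin, ran from -0.27 to 0.18 in filtered air and from -0.21 to 0.13 after ozone. Its groups overlapped, with a difference of -0.032 (SE 0.0809). The receptor that binds chemerin without a classical signal thus stood higher after ozone, while the signalling receptor had a difference within the spread of both groups; the difference between these 2 differences was not tested.

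**Figure D2:**
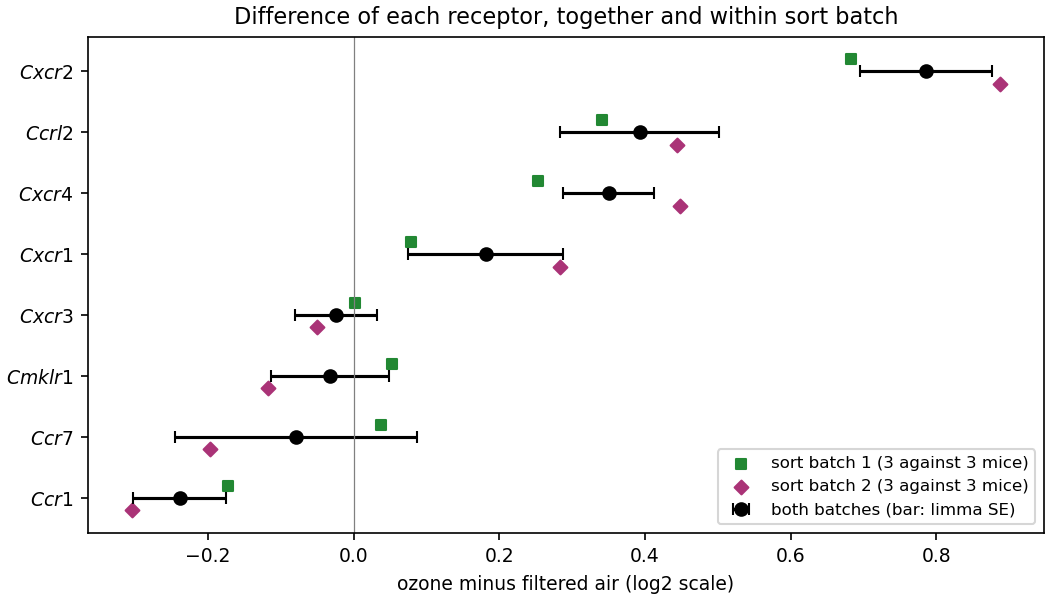
Difference of each receptor between ozone and filtered air on the log2 scale, in all 12 mice (circle, with the limma SE of 6 against 6 mice) and in each flow-sort batch of 3 against 3 mice (square, batch 1; diamond, batch 2). Cxcr2, Ccrl2, Cxcr4 and Cxcr1 lie above 0 and Ccr1 below 0 in both batches, while Cxcr3, Cmklr1 and Ccr7 change sign between batches.

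The flow-sort batches allow the differences to be set side by side in separate mice. Cxcr2 had a difference of 0.68 in batch 1 and 0.89 in batch 2. Cxcr4 had 0.25 and 0.45, Ccrl2 had 0.34 and 0.44, and Ccr1 had -0.17 and -0.30. In Cxcr1 the values were 0.079 and 0.28. These 5 of the 8 receptors had the same direction in both batches. Cxcr3, with 0.0020 and -0.050, Ccr7, with 0.038 and -0.20, and Cmklr1, with 0.052 and -0.12, did not. Whether the ozone difference itself changed with batch was tested as an interaction, which the choice of the receptors did not use. In limma's interaction test 0 of the 8 receptors and 0% of all genes kept had an adjusted p under 0.05, and 0 receptors and 510 genes had an unadjusted p under 0.05. For Cxcr2 the difference was larger in batch 2 by 0.20 (SE 0.181), with an adjusted p of 0.9998 in limma. That value is close to its own error.

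The receptors were compared with one another by the root mean square of the difference between their values over the 12 mice. It is small when 2 genes have like values in like mice. Every gene is set to 0 at its filtered-air mean, so this distance holds the ozone difference by which the receptors were chosen. Genes that stay near 0 are close by it whatever their course from mouse to mouse. The distances are a description, and no shared behaviour is read from them. Among the 8, Cxcr3 and Cmklr1 were closest, at 0.103, followed by Cxcr4 and Ccrl2, at 0.183. Cxcr2, which had the highest difference of the 8, stood apart, and its closest receptor was Ccrl2, at 0.360. By the same measure over 19632 other genes, the 5 genes most like Cxcr2 were Acp5, the tartrate-resistant acid phosphatase (0.210), the complement component C3 (0.213), the secretory kinase Fam20c (0.225), the cyclooxygenase Ptgs1 (0.234) and the chemokine Cxcl9 (0.241). Their own differences between ozone and filtered air lay between 0.56 (Cxcl9) and 0.65 (Fam20c), below the 0.79 of Cxcr2. Among the genes most like Ccr1, the receptor with the lowest difference, were Plek (0.0606) and S100a10 (0.0716). These distances are smaller than that of any gene to Cxcr2, and the differences of these genes were -0.23 for Plek and -0.24 for S100a10.

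Genes beside the receptors on the chromosome were examined for the 2 nearest tested protein-coding genes on each side, a choice made after the values of the receptors were known. Of the 28 neighbours that are not among the 8, 2 rose and 0 fell at an adjusted p under 0.05 in limma. Over all genes kept, 2.41% rose and 1.84% fell at that threshold. Rufy4, a gene of autophagy and membrane traffic that ends 5763 bases before Cxcr2, rose by 0.25 (SE 0.0599, adjusted p = 0.0306 in limma). Its 6 ozone values, from 0.16 to 0.42, lay above its 6 filtered-air values, from -0.14 to 0.14. This call was lost when any of filtered-air mice 1, 2 and 4 or ozone mice 5 and 6 was left out, with values from 0.21 to 0.25 in those fits, and under quantile normalization, in either batch alone and without both mice numbered 4. Over the 24 alternatives its adjusted p in limma ran from 0.00338 to 0.405. Mcm6, a subunit of the replicative helicase that lies 228493 bases from Cxcr4, rose by 0.40 (SE 0.0693, adjusted p = 0.00516 in limma). Its groups did not overlap, and its call was lost under quantile normalization and in either batch alone (adjusted p in limma from 0.00268 to 0.301 over the alternatives). Tns1, the neighbour on the far side of Rufy4, had a difference of -0.17 (adjusted p = 0.133), and Arpc2, beyond Cxcr1, had -0.053 (adjusted p = 0.637). Around Ccr1 lies a cluster of chemokine receptor genes, and Cxcr6 (-0.034), Xcr1 (-0.028) and Ccr2 (0.11) did not pass the test there.

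**Figure D3:**
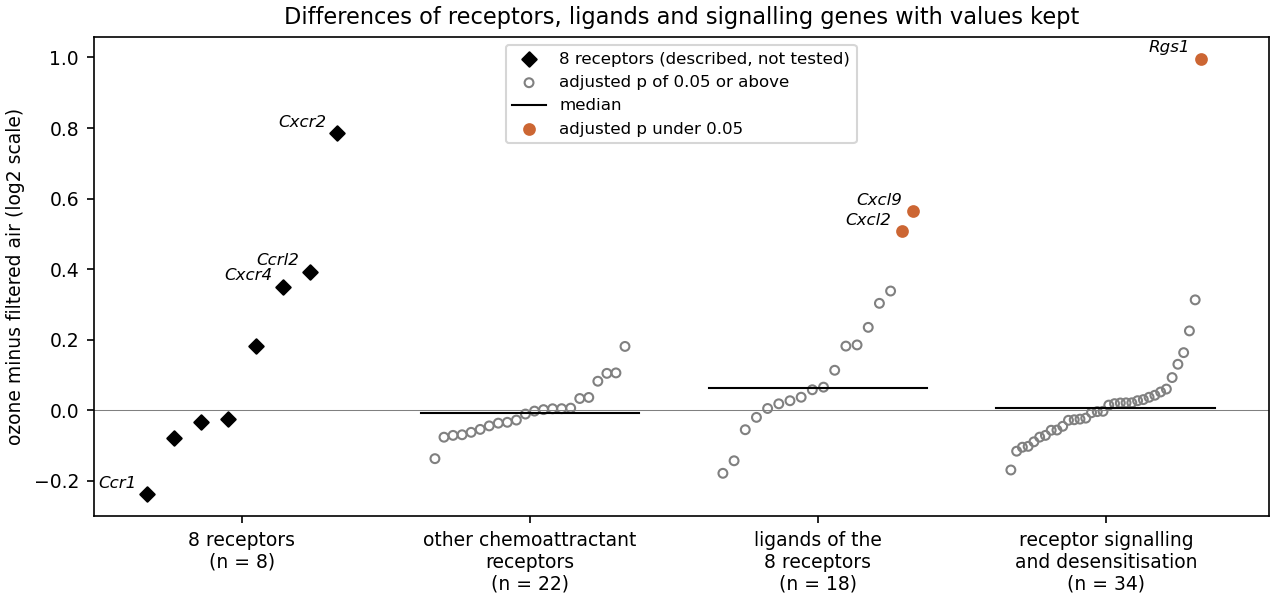
Differences between ozone and filtered air on the log2 scale for the 8 receptors (diamonds) and for the tested genes of 3 lists: 22 other chemoattractant receptors, 18 ligands of the 8 receptors and 34 genes of receptor signalling and desensitisation. Filled circles have an adjusted p under 0.05 in limma and lines are list medians; Cxcl9, Cxcl2 and Rgs1 are the filled ones, and the 22 other receptors lie between -0.14 (Cxcr5) and 0.18 (Fpr1).

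The wider family of chemoattractant receptors gives the setting for these 8. Of 27 further receptors listed, 22 passed the filter, and 0 of them had an adjusted p under 0.05 in limma (2 at an unadjusted p under 0.05). Over all 19633 genes kept, 3283 had an unadjusted p under 0.05. The 22 receptors had a median difference of -0.0068, with 10 above and 12 below 0. The nearest to the threshold was Fpr1, a receptor of bacterial formyl peptides, with a difference of 0.18 (adjusted p = 0.0710 in limma). It passed without filtered-air mouse 2 (0.21, adjusted p = 0.0450), without ozone mouse 6 (0.21, adjusted p = 0.0329) and without the batch term (adjusted p = 0.0454), and its adjusted p ran up to 0.613 in other alternatives. The monocyte receptors Ccr2 (0.11) and Cx3cr1 (0.033), the complement receptors C5ar1 (0.036) and C3ar1 (0.10), and the CXCL12 scavenger Ackr3 (0.0040) did not pass the test. Ccr3, Ccr1l1, Ackr1, Fpr3 and Gpr1 were not kept, since at least 8 mice stood at the lowest value in each of them.

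Among 21 listed ligands of the 8 receptors, 18 passed the filter, 2 rose and 0 fell. Over all genes kept, 2.41% rose and 1.84% fell at an adjusted p under 0.05 in limma. The ligands had a median difference of 0.062, with 14 of the 18 above 0. Cxcl9, an interferon-induced ligand of Cxcr3, ran from -0.11 to 0.23 in filtered air and from 0.057 to 1.08 after ozone. It rose by 0.56 (SE 0.126, adjusted p = 0.0210 in limma), and 5 of its 6 ozone values lay above all filtered-air values. Cxcl2, a ligand of Cxcr2, ran from -0.49 to 0.35 in filtered air and from 0.31 to 0.78 after ozone. It rose by 0.51 (SE 0.120, adjusted p = 0.0281 in limma), again with an overlap in 1 ozone mouse. Removal of any one of 3 mice (mouse 1 of filtered air, mice 3 and 5 of ozone) ended the Cxcl9 call, at 0.54 each time. Removal of any one of 4 mice (mice 1 and 3 of filtered air, mice 2 and 3 of ozone) ended the Cxcl2 call, at 0.45 to 0.50. Both calls were also lost under quantile normalization, with a variance trend and in either batch alone, and that of Cxcl9 without both mice numbered 4. Over the 24 alternatives the adjusted p in limma ran from 0.00291 to 0.393 for Cxcl9 and from 0.0107 to 0.483 for Cxcl2.

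None of the other 5 ligands of Cxcr2 and Cxcr1 that were kept passed the test with all 12 mice, and their 5 differences were above 0. Cxcl1 had a difference of 0.30 (adjusted p = 0.436), while Cxcl3 had 0.0048, Mif 0.018, Cxcl15 0.027 and Ppbp 0.037. Cxcl5 stood at the lowest value in too many mice to be kept. Among the CC chemokines listed, Ccl3 had 0.34 (adjusted p = 0.298), Ccl4 had 0.23 (adjusted p = 0.210) and Ccl6 had 0.18 (adjusted p = 0.422). Cxcl12, the ligand of Cxcr4, had -0.020. Rarres2, which encodes chemerin, had -0.18 (adjusted p = 0.0549 in limma), the lowest difference of the ligands kept. None of these passed with all 12 mice. Rarres2 was past the threshold on the lower side without filtered-air mouse 1 (-0.21, adjusted p = 0.0202 in limma), without ozone mouse 1 (-0.20, adjusted p = 0.0487) and without the batch term (-0.18, adjusted p = 0.0337), and its adjusted p ran up to 0.531 in other alternatives. Cxcl1 was past it on the higher side without filtered-air mouse 4 (0.49, adjusted p = 0.0248, against up to 0.921 in other alternatives), and it was at 0.16 without filtered-air mouse 6. Ccl6 was past it with the replicate block (0.18, adjusted p = 0.0240, against up to 0.806), and it was at 0.11 without filtered-air mouse 6 and 0.12 without ozone mouse 1.

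Of 34 genes of receptor signalling and desensitisation, all 34 passed the filter and 1 rose, where 2.41% of all genes kept rose. The list median was 0.0056, with 17 genes on each side of 0. The gene that rose was Rgs1, which shortens signalling of inhibitory G proteins. It ran from -0.77 to 0.41 in filtered air and from 0.765 to 1.264 after ozone, without overlap. It rose by 1.00 (SE 0.175, adjusted p = 0.00547 in limma). The call held with any 1 mouse left out and was lost under quantile normalization, with a variance trend and in either batch alone; over the 24 alternatives the adjusted p in limma ran from 0.00236 to 0.622. Plcb2, the phospholipase C beta of blood cells, had 0.31 (adjusted p = 0.0777) and the gamma subunit Gng12 had 0.22 (adjusted p = 0.0823). Plcb2 passed without filtered-air mouse 5 (0.37, adjusted p = 0.0315 in limma), with the replicate block (adjusted p = 0.0139) and with the T and NK cell covariate (adjusted p = 0.0232), and the GTPase Rac2 passed without ozone mouse 3 (0.22, adjusted p = 0.0101); elsewhere their adjusted p ran up to 0.495 and 0.870. The inhibitory G protein subunits Gnai2 (-0.029) and Gnai3 (-0.090), the kinase Pik3cg (0.021), the arrestins Arrb1 (-0.12) and Arrb2 (0.037), and the receptor kinase Grk2 (0.014) did not pass the test.

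Several of these receptors are known mainly from other leukocytes, so markers of other cells were followed in the same mice. Of the alveolar macrophage markers, 11 of 11 genes had no mouse at a lowest value shared within its batch. Within that list Chil3 rose by 0.25 and Car4 by 0.32, while Krt79 had a difference of -0.35 (adjusted p = 0.0320, 0.0460 and 0.0177 in limma). Marco had the largest difference of the list, 0.58, and did not pass (adjusted p = 0.108). The calls of Chil3 and Car4 were lost in 7 and 8 of the 12 fits with 1 mouse left out. The calls of all 3 genes were lost under quantile normalization, in either batch alone and without both mice numbered 4; that of Car4 was also lost with no filter on low values, with a variance trend and with the robust fit. Over the 24 alternatives the adjusted p in limma reached 0.530 for Chil3, 0.565 for Car4 and 0.273 for Krt79. Of 12 neutrophil markers, 8 were kept and 0 passed the test in limma (1 at an unadjusted p under 0.05). Over all 19633 genes kept, 2.41% rose and 1.84% fell at an adjusted p under 0.05, and 3283 genes had an unadjusted p under 0.05. Camp stood at the lowest value in all 12 mice, Ly6g in 11, Ngp in 10 and Stfa2l1 in 7. The mean of the neutrophil list ran from -0.14 to 0.28 in filtered air and from -0.11 to 0.043 after ozone. Of the 8 kept markers 3 had differences above 0 and 5 below 0, from -0.27 in Csf3r (adjusted p = 0.0837 in limma) to 0.15 in Ltf and 0.17 in Mmp8 (adjusted p = 0.305), beside the 0.79 of Cxcr2. S100a8 had 0.085 and S100a9 had -0.015. The neutrophil mean was not higher in the ozone group, at -0.021 ± 0.0515 (SD, n = 6) against 0 ± 0.153 (SD, n = 6).

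The mean of 11 T and NK cell markers was 0 ± 0.188 (SD, n = 6) in filtered air, within -0.22 to 0.22. After ozone it was -0.022 ± 0.152 (SD, n = 6), within -0.19 to 0.16, and 0 of the 11 passed the test in limma (0 at an unadjusted p under 0.05). B cell markers had a mean of -0.21 ± 0.0777 (SD, n = 6) against 0 ± 0.195 (SD, n = 6), with 6 of 6 genes below 0, 0 of them past the test and 4 at an unadjusted p under 0.05. Among all 19633 genes kept, 3283 had an unadjusted p under 0.05 in limma, the setting for the counts in these lists. In 4 of the other 5 lists 0 genes passed in limma (0 to 2 a list at an unadjusted p under 0.05), and in the epithelial list Epcam had a difference of -0.55 (adjusted p = 0.00620 in limma; 0.125 under quantile normalization, and 0.112 and 0.250 in batch 1 and batch 2 alone). Filtered-air mouse 4 had the highest filtered-air mean of the neutrophil, B cell, dendritic cell, monocyte and epithelial lists. Without both mice numbered 4 no receptor's difference moved by more than 1 SD of its values within the groups. The part of the B cell and other lists in the receptors' differences was not tested.

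**Figure D4:**
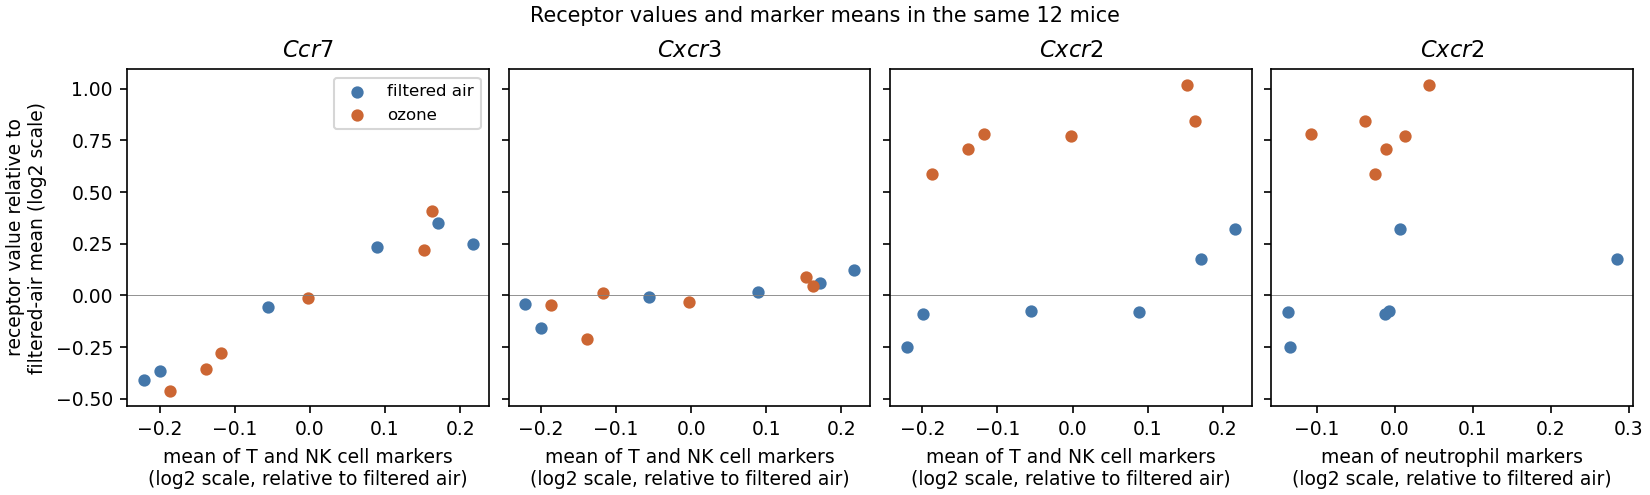
Values of Ccr7, Cxcr3 and Cxcr2 in each mouse against the mean of 11 T and NK cell markers, and of Cxcr2 against the mean of 8 neutrophil markers (last panel), all on the log2 scale relative to the filtered-air mean. Ccr7 rises with the T and NK cell mean in both groups alike, whereas the ozone points of Cxcr2 lie above the filtered-air points along the whole range of that mean.

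Within the groups, some of the receptors moved from mouse to mouse with other cells' markers. This was measured as the correlation over the 12 mice of each receptor's deviation from its group mean with that of each of 9 marker means, so the ozone contrast is removed; the 72 relations were examined after the data had been seen. Deviations of Ccr7 followed those of the T and NK cell mean with Pearson r = 0.972 (permutation p = 3e-05, adjusted p = 0.00216) and Spearman rho = 0.944 (permutation p = 8e-05, adjusted p = 0.00576). Without the 2 mice farthest from the median r was 0.986, and it was 0.952 in batch 1 and 0.992 in batch 2. Cxcr2 followed the same mean with r = 0.863 (permutation p = 0.00026, adjusted p = 0.00624) and rho = 0.881 (permutation p = 0.00067, adjusted p = 0.0121), with r = 0.800 without the 2 farthest mice and 0.869 and 0.858 within batches. Cxcr3 gave r = 0.787 (permutation adjusted p = 0.0331) and rho = 0.895, with 0.778 without the 2 farthest mice and 0.904 and 0.680 within batches. Of all 72 relations, 7 had an adjusted p under 0.05 by Pearson's r (3 of Ccr7, 3 of Cxcr3 and 1 of Cxcr2) and 9 by Spearman's rho (3 of each of these genes). Besides the T and NK cell mean, the lists were monocytes with interstitial macrophages and dendritic cells. With the monocyte and interstitial macrophage mean r was 0.913 for Ccr7, 0.756 for Cxcr3 and 0.773 for Cxcr2. With the dendritic cell mean it was 0.793, 0.748 and 0.787. For Cxcr2 these 2 relations had a permutation adjusted p of 0.0652 each by r and of 0.0294 each by rho (0.825 for both), so its relation was not particular to T and NK cell markers.

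The relation of Cxcr2 with the neutrophil mean was r = 0.544 (permutation p = 0.130, adjusted p = 0.329). Cxcr4, Ccr1 and Ccrl2 had 0 relations at an adjusted p under 0.05 among the 9 lists by either coefficient. At an unadjusted permutation p under 0.05 they had 0 by r, and by rho 1 of Ccrl2 (with the eosinophil, basophil and mast cell mean, rho = 0.720). Cmklr1 and Cxcr1 had 0 at an adjusted p under 0.05 by either coefficient, and at an unadjusted permutation p under 0.05 they had 5 and 1 of the 9 by each. Ordered by r, the highest of these were r = 0.752 for Cmklr1 with the monocyte and interstitial macrophage mean (permutation adjusted p = 0.106; rho = 0.706, adjusted p = 0.137) and r = 0.766 for Cxcr1 with the T and NK cell mean (permutation adjusted p = 0.0652; rho = 0.776, adjusted p = 0.0566). With the T and NK cell mean as a covariate, an alternative added after seeing the data, the Cxcr2 difference was 0.81 (SE 0.0534) beside 0.79 (SE 0.0909) without it. The SE of Ccr7 was 0.0493 with the covariate and 0.166 without it, and its difference was -0.038. Cxcr4 had 0.35, Ccrl2 0.39 and Ccr1 -0.25 in that fit, beside 0.35, 0.39 and -0.24 without the covariate.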

How the data were processed

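RNA from flow-sorted alveolar macrophages of 12 mice was measured by stranded, paired-end mRNA sequencing, per the labels' protocols. The deposited table holds 1 log2-scale value per gene symbol and mouse, which the authors had variance-stabilized and batch-corrected, per the file's name; the filtered-air mean is 0 in every gene. The submitters' processing notes name the build mm10 and cutadapt, STAR 2.7.7a, Salmon 1.5.2, DESeq2 1.26.0, R 3.6.0 and limma 3.42.2, with no role given. All 12 columns matched 1 sample each and 0 were left over.

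Genes were kept where 6 or more mice exceeded the lowest value shared within a batch, which excluded 5811 variable genes. The comparison used limma 3.58.1 in R 4.3.3, with group and flow-sort batch as terms, no variance trend, and Benjamini-Hochberg adjustment over the 19633 genes kept at a threshold of 0.05; the script was tested on simulated data. Correlations used 100000 random permutations within groups, two-sided, in Python 3.11.15. The receptors, the gene lists and the tests were chosen with earlier results of these data known. Named from the lists were up to 6 genes past the threshold by smallest p, the 5 genes most like Cxcr2 and the 3 most like the receptor with the lowest difference, of which 1 is not reported here; other listed genes were named after their values were seen. For 2 listed genes names were matched through RefSeq synonyms. Tried as alternatives were 24 settings of filter, scaling, variance model, covariates, block, batch and mice left out. Reads could not be estimated for the receptors, because none had a mouse at the shared lowest value. The treatment of reads that fit several genes is not given in the sources used here. The labels number the mice separately in each group and give each its own identity.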

Additional observations from a re-analysis of the deposited data

Results flagged for a closer look

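Of 22 combinations of gene and group examined (the 8 receptors, Cxcl9, Cxcl2 and Rgs1 in each group of 6 mice), 1 held a mouse set apart from the others by Dixon's criterion, where chance gives about 1.1. It was Cxcl9 in filtered-air mouse 5, at 0.23 on the log2 scale, against -0.0032 in the next highest filtered-air mouse. Filtered-air mouse 5 was also the highest filtered-air mouse for Cxcr2, Cxcr1, Cxcr3 and Cxcr4. Without it the Cxcl9 difference was 0.61 (adjusted p = 0.0212 in limma).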

How the results depend on the processing

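The differences of the 8 receptors moved by less than 1 SD, taken between mice within the groups, in all 192 combinations of receptor and alternative. For Cxcr1, Cxcr3, Ccr7 and Cmklr1 that SD exceeds the difference itself, so even loss of the whole difference would not count as a move. Cxcr1 was at 0.079 in batch 1 alone, beside 0.18 in all mice. With 1 mouse left out, Cxcr3 ran from -0.059 to 0.018, Ccr7 from -0.19 to 0.0053 and Cmklr1 from -0.092 to 0.0080, each changing sign. The fit of all 12 mice called 834 genes, against 171 under quantile normalization, 90 in flow-sort batch 1 alone, 0 in batch 2 alone and 534 without both mice numbered 4 (171, 89, 0 and 484 of them among the 834); leaving out 1 mouse gave 538 (filtered-air mouse 1) to 751. Of the ligands, 2 were called, against 0 under quantile normalization, with a variance trend and in either batch alone, 1 without both mice numbered 4, and 0 to 3 with 1 mouse left out; these counts include Rarres2, called lower without filtered-air mouse 1, where it was the 1 ligand called, and without ozone mouse 1. Of the signalling genes, 1 was called, against 0 under quantile normalization, with a variance trend and in either batch alone, 2 with the T and NK cell covariate, and 1 to 2 with 1 mouse left out. Of the other receptors, 0 were called, 1 without the batch term and 0 to 1 with 1 mouse left out. The interaction gave 0 genes in every fit run.

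Replicate numbers were tried as a replicate block. Same-numbered mice had correlations of deviations from -0.0026 to 0.284, 4 of 6 above 0.1, and 3 of 6 ozone mice matched best with their own number, which is a hint from the data only; since not every pair was above 0.1 and the labels name no shared source, the numbers were not taken to pair the mice. With the block, 853 genes were called, 686 of them shared with the fit without it, and 3 ligands, 2 signalling genes and 0 other receptors. The planned estimate of the receptors' reads was not run, since 0 of them had a mouse at the lowest value. The fits of 1 batch use fewer mice; where the fits use the same mice, the cause of a lost call was not tested.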
